A study of Mus musculus with 6 samples.

Results

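Costimulatory and checkpoint receptors are the surface proteins that raise or lower the response of a T cell to its antigen receptor. The 10 receptor genes described here, *Cd2*, *Cd27*, *Cd28*, *Cd48*, *Cd84*, *Btla*, *Pdcd1*, *Ctla4*, *Icos* and *Tnfrsf18*, were taken by gene symbol from the mRNA-seq tables of 6 libraries, and all 10 were found among 23183 symbols. The libraries came from CD4+ CD8+ double positive (DP) thymocytes, the immature stage at which the T cell receptor (TCR) is tested against self-peptides, sorted from mice in which the splicing factor NSrp70 was present or deleted. WT libraries 1 to 3 carried the floxed allele alone (NSRP1f/f). NSrp70-cKO (cKO) libraries 1 to 3 carried it with the CD4Cre transgene (NSRP1f/fCD4Cre), so both groups shared the floxed *Nsrp1* alleles, the C57BL/6 strain and the age of 6 weeks, and no Cre control without floxed alleles was among these libraries. CD4Cre is driven by CD4 regulatory elements and deletes from the late double negative stage onwards. The labels do not say whether the libraries of a group came from separate mice, so p-values measure only the spread between these libraries, which may be technical.

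The receptors belong to 3 families. CD28, ICOS, CTLA-4, PD-1 (*Pdcd1*) and BTLA are immunoglobulin superfamily proteins of the CD28 kind: CD28 and ICOS recruit phosphoinositide 3-kinase and add to the TCR signal, CTLA-4 competes with CD28 for the ligands CD80 and CD86, and PD-1 and BTLA carry tyrosine motifs that recruit phosphatases. CD2, CD48 and CD84 are adhesion receptors of the CD2 and SLAM family, in which CD48 is the mouse ligand of CD2 and CD84 binds itself. CD27 and GITR (*Tnfrsf18*) are members of the TNF receptor superfamily that signal through TRAF adaptors. In the thymus, several of these genes are known to be induced when a thymocyte receives a TCR signal, and CTLA-4, ICOS and GITR are also abundant on regulatory T cells.

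The values are FPKM, fragment counts divided by transcript length and by library depth, so levels of different genes can be set side by side. FPKM tables hold no counts, but low values fell on steps of 1 fragment, which placed the depth, in M (1e6) fragments, between 20.7 and 20.8 in WT and at 13.1, 20.6 and 17.4 in cKO 1, 2 and 3. *Nsrp1*, listed under its older symbol *Ccdc55*, had an FPKM of 20.2, 20.7 and 21.1 in WT and of 17.7, 15.8 and 15.0 in cKO, so transcript from the gene was still counted after the deletion. Between 2 WT libraries the median squared difference of a gene, in units of what counting alone gives, was 1.27 to 1.32, and between 2 cKO libraries it was 5.25 to 11.5. The tests of the receptors were therefore also run with WT collapsed to 1 averaged sample. *Xist* lay between 69.8 and 72.0 in WT and between 4.07 and 5.44 in cKO, and *Ddx3y*, on chromosome Y, was listed at 0 in WT and lay between 26.2 and 35.0 in cKO, so that genotype and the sex of the animals cannot be told apart in any comparison here.

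In WT DP thymocytes the level of the receptors spanned nearly 2 orders of magnitude. *Cd27* was the most abundant, with a mean FPKM of 278 ± 3.32 (SD, n = 3), followed by *Cd2* at 126 ± 2.29, *Cd28* at 89.1 ± 0.518, *Cd84* at 44.7 ± 0.531, *Cd48* at 27.9 ± 0.490 and *Tnfrsf18* at 25.7 ± 1.06. The remaining receptors were lower, with *Ctla4* at 14.3 ± 0.165, *Icos* at 6.03 ± 0.354, *Pdcd1* at 4.73 ± 0.488 and *Btla* at 3.76 ± 0.271. No neighbours in this order had overlapping ranges in WT. In cKO the first 6 kept their order, but *Pdcd1* moved from rank 9 to rank 7, above *Ctla4* and *Icos*. There, *Cd84* overlapped *Cd48*, and *Ctla4* overlapped *Icos*.

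**Figure D1:**
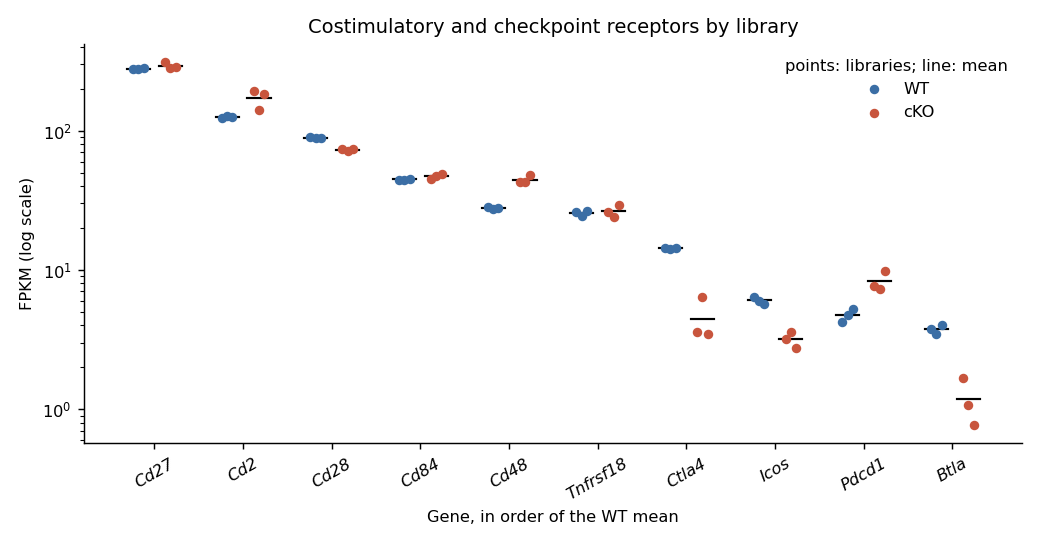
FPKM on a log scale for each of the 10 receptor genes, in order of the WT mean, with 1 point per library (3 WT, 3 cKO) and a line at the mean of each group. *Ctla4*, *Icos*, *Btla* and *Cd28* lie lower in all 3 cKO libraries, *Cd2*, *Cd48* and *Pdcd1* lie higher, and the cKO points of *Ctla4* and *Btla* are widely spread.

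Tested with limma on log2(FPKM + 1) across 10326 genes, 7 of the 10 receptors passed an adjusted p of 0.05 between genotypes, 3 higher and 4 lower in cKO. A gene past this threshold is said to have changed. Such changes were the rule in these libraries, as 65.5% of all tested genes passed, 35.8% higher and 29.8% lower, so the count of 7 is close to the background. The same 7 receptors had non-overlapping groups, against 72.5% of all genes (39.2% higher and 33.3% lower). Fold sizes set some of the receptors apart: *Ctla4* and *Btla* had larger absolute log2 fold changes than 98.4% and 95.1% of tested genes. They were the only receptors past both the adjusted p and a log2 change of 1 in size, as 8.59% of all genes were. *Tnfrsf18*, *Cd84* and *Cd27* lay at the 3.57, 9.03 and 9.25 percentiles. The median log2 fold change of the 10 receptors was 0.047, beside 0.039 over all genes. The coefficient of variation was larger among the cKO libraries than among the WT libraries for all 10. With WT collapsed to 1 averaged sample, 4 receptors passed, *Ctla4*, *Btla* and *Icos* lower and *Cd48* higher, against 15.9% of all genes (7.16% higher and 8.74% lower).

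*Cd28*, *Ctla4* and *Icos* lie beside each other on the plus strand of chromosome 1 of GRCm38 (mm10), and all 3 fell in cKO, to different degrees. *Cd28* spans 60716800 to 60773359, *Ctla4* follows after 113.6 kb from 60887000 to 60915832, and *Icos* after a further 62.1 kb from 60977927 to 61000320. *Ctla4*, which encodes the inhibitory rival of CD28, had an FPKM of 14.5, 14.1 and 14.3 in WT and of 3.60, 6.35 and 3.46 in cKO. Every cKO library was below every WT library, with cKO 2 the nearest. The mean was 3.20-fold lower and the log2 fold change was -1.52 ± 0.18 (SE, adjusted p = 0.000519 from limma), the largest in size of the 10. These values stood for about 506 to 521 fragments per WT library and 82 to 227 per cKO library. Without cKO 2 the log2 fold change was -1.75.

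*Icos*, the inducible costimulator, had an FPKM of 6.42, 5.94 and 5.73 in WT and of 3.20, 3.61 and 2.73 in cKO. The groups did not overlap, and the fall was smaller than that of its neighbour *Ctla4*, with a mean 1.90-fold lower and a change of -0.76 ± 0.097 on the log2 scale (SE, adjusted p = 0.000660). *Cd28*, the main costimulatory receptor of T cells, had an FPKM of 89.7, 88.9 and 88.7 in WT and of 73.4, 71.2 and 73.3 in cKO. It was the most even of the receptors within both groups, and its mean was 1.23-fold lower, a change of -0.29 ± 0.059 on the log2 scale (SE, adjusted p = 0.00410). With WT collapsed to 1 averaged sample, *Cd28* no longer passed (adjusted p = 0.235), while *Ctla4* and *Icos* did (adjusted p = 0.0332 and 0.0480).

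The 2 phosphatase-recruiting inhibitors moved in opposite directions. *Btla* (chromosome 16, 45224315 to 45257670) had an FPKM of 3.76, 3.48 and 4.02 in WT and of 1.69, 1.07 and 0.767 in cKO. All cKO values lay below 2 and all WT values above 3, the mean was 3.20-fold lower, and the change was -1.15 ± 0.16 on the log2 scale (SE, adjusted p = 0.000821). It was the lowest of the receptors in both groups, at an estimated 101 to 116 fragments per WT library and 19 to 31 per cKO library. *Pdcd1*, encoding PD-1 (chromosome 1, 94038305 to 94052553), had an FPKM of 4.24, 4.76 and 5.21 in WT and of 7.70, 7.34 and 9.90 in cKO. It was higher in all 3 cKO libraries, with a mean 1.76-fold higher and a change of 0.69 ± 0.12 on the log2 scale (SE, adjusted p = 0.00235), on 152 to 186 fragments in WT and 175 to 297 in cKO. Its adjusted p was 0.0638 with WT collapsed to 1 averaged sample and 0.129 with FPKM totals made equal.

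The adhesion receptors of the CD2 and SLAM family were level or higher in cKO. *Cd48* (chromosome 1, 171682009 to 171705258), the ligand of CD2, had an FPKM of 28.5, 27.5 and 27.8 in WT and of 43.0, 42.6 and 48.0 in cKO. All cKO libraries exceeded all WT libraries, by 1.59-fold in the mean, a change of 0.65 ± 0.070 on the log2 scale (SE, adjusted p = 0.000360). *Cd2* (chromosome 3, 101275899 to 101287939), whose protein was engaged beside the TCR by coated antibodies in the culture assay of the study, had an FPKM of 124, 128 and 125 in WT and of 192, 141 and 184 in cKO. The cKO libraries were all higher but uneven, cKO 2 being closest to WT, and the log2 fold change was 0.44 ± 0.13 (SE, adjusted p = 0.0179). This call was fragile: the adjusted p was between 0.0501 and 0.0659 without any 1 WT library or without cKO 3, and 0.222 with WT collapsed to 1 averaged sample.

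*Cd84* (chromosome 1, 171839697 to 171890718), on the same strand as *Cd48* and 134.4 kb from it, had an FPKM of 44.5, 44.3 and 45.3 in WT and of 44.6, 47.2 and 49.1 in cKO. The groups overlapped and the log2 fold change was 0.068 ± 0.062 (SE, adjusted p = 0.368, or 0.782 with WT collapsed to 1 averaged sample). With fold changes corrected for transcript length and GC content, the log2 fold change was -0.015 for *Cd2* (adjusted p = 0.909), -0.056 for *Cd48* (adjusted p = 0.429) and -0.18 for *Cd84* (adjusted p = 0.0302). The rise of *Cd2* and *Cd48* was thus not seen after that correction, whereas that of *Pdcd1* was (log2 fold change 0.74, adjusted p = 0.0024), and *Ctla4*, *Btla*, *Icos* and *Cd28* had log2 fold changes of -1.96, -1.70, -0.97 and -0.46. With this correction 1 receptor was higher and 5 lower, against 30% and 26.8% of all genes (56.9% in all).

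The TNF receptor family members did not pass the test. *Cd27* (chromosome 6, 125232622 to 125237010), a costimulatory receptor of naive T cells and thymocytes, had an FPKM of 275, 278 and 282 in WT and of 310, 282 and 286 in cKO. The change was 0.070 ± 0.078 on the log2 scale (SE, adjusted p = 0.458). *Tnfrsf18*, encoding GITR (chromosome 4, 156026164 to 156028895), had an FPKM of 26.2, 24.5 and 26.5 in WT and of 25.9, 24.0 and 29.1 in cKO. The change was 0.027 ± 0.087 on the log2 scale (SE, adjusted p = 0.800). For both genes the cKO range overlapped that of WT, and with WT collapsed to 1 averaged sample the adjusted p was 0.832 and 0.925. Both had negative values under other scalings: with FPKM totals made equal they were -0.49 and -0.51 (adjusted p = 0.00153 and 0.000615), and under quantile normalization -0.44 (adjusted p = 0.00189) and -0.031 (adjusted p = 0.751).

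**Figure D2:**
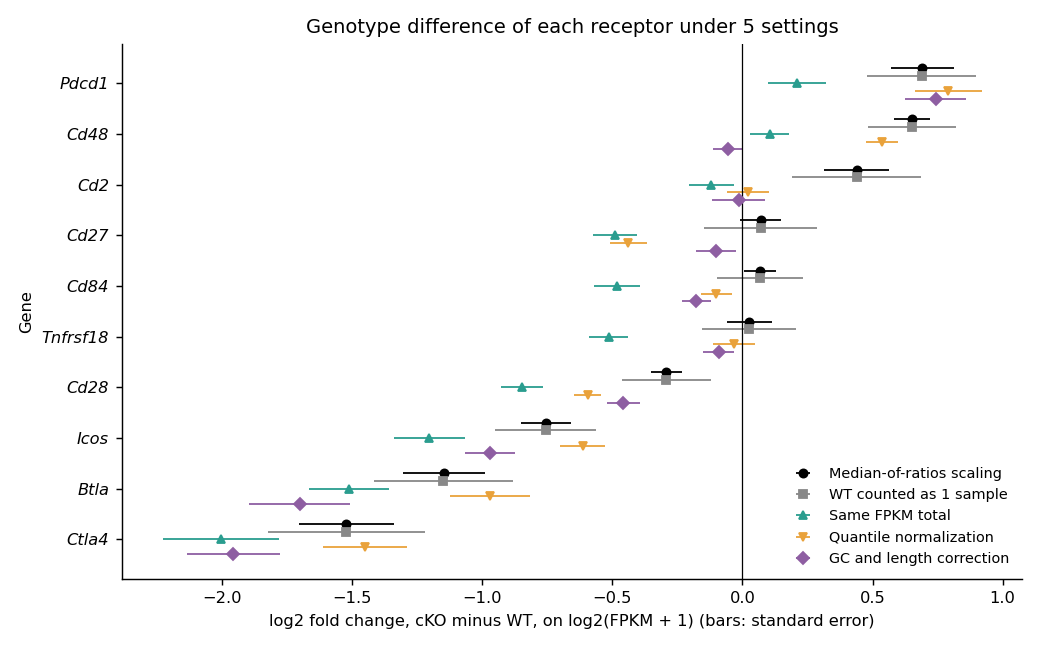
The log2 fold change of each receptor gene (cKO minus WT, on log2(FPKM + 1)) under 5 settings, with bars for the standard error of the fit. The points of *Ctla4*, *Btla*, *Icos* and *Cd28* are left of 0 in all 5, *Pdcd1* is right of 0 in all 5, and *Cd48*, *Cd2*, *Cd27*, *Cd84* and *Tnfrsf18* have points on both sides.

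The split of calls depended on the scaling. FPKM totals lay between 521296 and 531517 in WT and between 701396 and 850548 in cKO. The main scaling, by the median ratio to a reference over genes, called 3 receptors higher and 4 lower. Quantile normalization called *Cd48* and *Pdcd1* higher and *Btla*, *Cd27*, *Cd28*, *Ctla4* and *Icos* lower, against 33.3% of all genes higher and 29.9% lower (63.2% in all). Equal FPKM totals called 0 higher and 7 lower, against 8.74% and 59.9% of all genes (68.6% in all), so most tested genes were called lower there. The 7 were *Ctla4*, *Btla*, *Icos*, *Cd28*, *Tnfrsf18*, *Cd27* and *Cd84*.

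The ratio of a pair of receptors within 1 library is not changed by dividing a library by a factor, as the main scaling and equal FPKM totals do, but it is by quantile normalization and by correcting for GC content and length. Of such ratios, 7 were chosen after the values had been seen. *Cd28* stood to *Ctla4* at 6.20, 6.29 and 6.22 in WT and at 20.4, 11.2 and 21.2 in cKO. The ratio of the costimulator to its rival was thus higher in every cKO library, with cKO 2 at an intermediate value. *Cd28* stood to *Icos* at 14.0, 15.0 and 15.5 in WT and at 22.9, 19.7 and 26.8 in cKO. *Pdcd1* stood to *Btla* at 1.13, 1.37 and 1.30 in WT and at 4.57, 6.86 and 12.9 in cKO, the largest shift of the 7. *Cd48* stood to *Cd84* at 0.640, 0.621 and 0.615 in WT and at 0.965, 0.903 and 0.977 in cKO. The groups did not overlap for these ratios and for *Ctla4* to *Icos*, 5 of the 7. Over all 45 pairs of the receptors 84.4% did not overlap, beside 69.8% of the pairs of all tested genes above 0 in every library, so the 5 of 7 is near the background. Once corrected for both covariates, *Cd48* and *Cd84* had log2 fold changes of -0.056 and -0.18, closer to each other than before. Each of the 5 had p = 0.1 in an exact two-sided permutation test (0.14 adjusted over the 7), the smallest p that 3 libraries against 3 allow. *Cd2* to *Cd48* and *Cd27* to *Tnfrsf18* overlapped (exact p = 0.2 and 0.8).

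**Figure D3:**
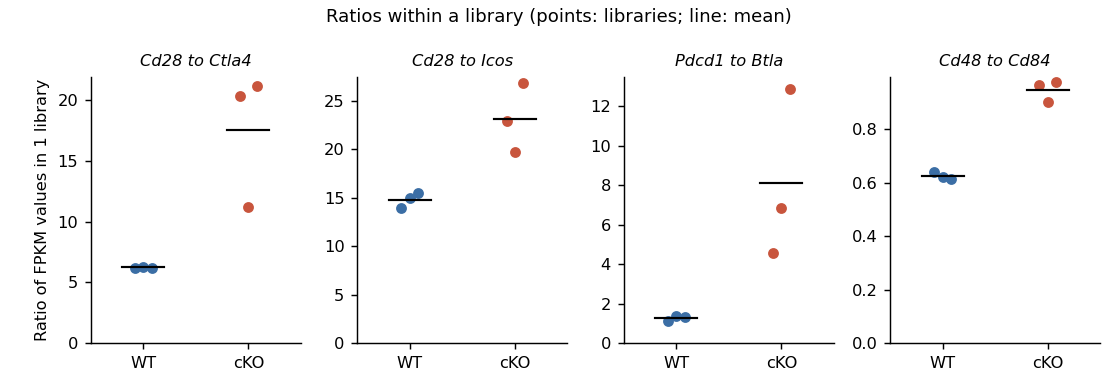
Ratio of the FPKM values of 2 receptor genes in the same library, for 4 pairs, with 1 point per library and a line at the mean of each group (3 WT, 3 cKO). In each pair the 3 cKO libraries lie above the 3 WT libraries, and the *Pdcd1* to *Btla* ratio in cKO runs from 4.57 to 12.9.

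Upstream sequence is shown for the receptors with the larger changes, *Ctla4* and *Btla*, which fell, and *Cd48* and *Pdcd1*, which rose, as far as RefSeq promoters (GRCm38.p6) were given. *Cd2*, *Cd28* and *Icos* were without an entry. The RefSeq start of *Ctla4* lies inside the gene as annotated in GENCODE, and the *Btla* window runs past the GENCODE start of that gene. In the 250 bases before each start both strands were searched for motif letters. AP-1 was read as TGANTCA and NFAT as GGAAAA. The E boxes were CAGCTG and the related form CAGGTG. Egr was read as GCGTGGG, and the CCAAT box and the TATA box (TATAAA) by their own letters. Matches are in capitals, some of them as the reverse complement.
Ctla4 promoter, chr1:60908775-60909024, + strand: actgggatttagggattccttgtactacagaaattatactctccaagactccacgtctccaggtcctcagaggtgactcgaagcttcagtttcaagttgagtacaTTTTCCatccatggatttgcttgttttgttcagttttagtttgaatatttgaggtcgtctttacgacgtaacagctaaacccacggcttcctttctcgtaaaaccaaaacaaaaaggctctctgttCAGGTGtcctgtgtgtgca
Btla promoter, chr16:45224087-45224336, + strand: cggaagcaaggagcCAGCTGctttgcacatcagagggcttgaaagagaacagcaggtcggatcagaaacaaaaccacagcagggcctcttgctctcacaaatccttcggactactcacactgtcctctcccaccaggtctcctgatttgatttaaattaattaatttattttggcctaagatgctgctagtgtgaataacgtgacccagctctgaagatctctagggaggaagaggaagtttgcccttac
Cd48 promoter, chr1:171681742-171681991, + strand: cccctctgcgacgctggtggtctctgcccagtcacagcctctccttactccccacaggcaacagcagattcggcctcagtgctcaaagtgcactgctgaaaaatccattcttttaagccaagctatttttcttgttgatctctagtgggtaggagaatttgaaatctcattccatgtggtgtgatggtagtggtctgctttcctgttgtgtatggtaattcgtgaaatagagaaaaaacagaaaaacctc
Pdcd1 promoter, chr1:94052554-94052803, - strand: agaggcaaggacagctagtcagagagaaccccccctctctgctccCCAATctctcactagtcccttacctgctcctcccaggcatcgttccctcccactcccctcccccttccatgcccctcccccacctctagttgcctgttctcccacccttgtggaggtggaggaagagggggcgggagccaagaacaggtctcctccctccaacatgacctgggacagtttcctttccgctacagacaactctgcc
*Ctla4* held NFAT letters, which 20.4% of 32851 promoters hold, and an E box of the CAGGTG form, held by 17.2%. *Btla* held the CAGCTG form (13.0%) and *Pdcd1* a CCAAT (33.8%). No match was in the *Cd48* window. Of the other receptors with an entry, *Cd84* held AP-1 letters (6.7%), *Cd27* NFAT letters, and *Tnfrsf18* NFAT letters and CAGGTG. The Egr and TATAAA letters, in 4.3% and 12.4% of promoters, were in none of the 7 windows.

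Other genes of these pathways were read from lists that cover further SLAM, TNF receptor, coinhibitory and costimulatory receptors, their ligands and their cytoplasmic partners. Of 72 genes, 70 were found and 48 were high enough to test, of which 6 rose and 23 fell in cKO, against 35.8% and 29.8% of all genes, with a median log2 fold change of -0.21 beside 0.039 over all genes. With WT collapsed to 1 averaged sample 2 rose and 9 fell, against 7.16% and 8.74% of all genes, and with equal FPKM totals 1 rose and 42 fell, against 8.74% and 59.9%. Of the 48, *Tnfrsf9*, *Tnfrsf25*, *Cd160*, *Cd200* and *Cd40lg* reached the filter level of FPKM 1 in WT libraries alone, and 0 genes in cKO libraries alone. These 5 could only differ downwards, so the counts of falling genes that follow are partly set by the filter and are a description. Without WT replicate 1, 2 or 3 between 14 and 15 fell, and without cKO replicate 2, 11 rose.

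In the SLAM family, which lies with *Cd48* and *Cd84* on chromosome 1, *Slamf1* and *Slamf6* rose, with log2 fold changes of 0.64 (adjusted p = 0.000198) and 0.29 (adjusted p = 0.00453). *Slamf1* was at 29.0, 29.5 and 30.3 in WT and at 46.5, 47.2 and 46.2 in cKO, a change of the size of that of *Cd48*. The rise of *Cd48* was not seen after correction for GC content and length (-0.056). Values of *Slamf1* and *Slamf6* under that correction or with equal FPKM totals are not reported here. With equal totals only 1 related gene rose. *Ly9* did not pass (log2 fold change 0.10, adjusted p = 0.496), and *Slamf7*, *Slamf8*, *Slamf9* and *Cd244* were too low to test. Among the adaptors, *Sh2d1a*, encoding the SLAM adaptor SAP, was at 276, 266 and 276 in WT and at 207, 351 and 309 in cKO (adjusted p = 0.828). *Fyn*, the kinase that SAP recruits, fell from a mean of 50.7 to 24.4 ± 1.52 (SD, n = 3), the only change among the 5 tested genes of that list.

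Of 6 tested TNF receptor genes beside *Cd27* and *Tnfrsf18*, 4 fell and 0 rose. *Tnfrsf9* (4-1BB) was at 2.08, 2.25 and 2.26 in WT and at 0.550, 0.612 and 0.690 in cKO, a difference in log2 of -0.98. *Tnfrsf25* (DR3) and *Tnfrsf4* (OX40) had log2 fold changes of -1.07 and -1.14, the latter with uneven cKO values of 0.409, 3.04 and 1.43. *Tnfrsf14*, which encodes HVEM, the ligand of BTLA, fell from 9.60 to 4.77 ± 1.01 (SD, n = 3), a difference in log2 of -0.89 (adjusted p = 0.00114). Of the 6 TRAF genes, *Traf1* and *Traf3* fell (-0.93 and -0.72) and *Traf2* and *Traf6* rose (0.27 each). *Traf4* and *Traf5* did not pass.

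In the list of other coinhibitory receptors, 5 of 9 tested genes fell and 0 rose. *Cd96*, a receptor of nectin-like ligands, had the largest log2 change of that list, with an FPKM of 76.0, 74.8 and 78.4 in WT and of 13.8, 12.9 and 15.9 in cKO. The change was -2.35 ± 0.086 on the log2 scale (SE, adjusted p = 2.06e-05). *Cd226*, the costimulatory receptor that shares the ligand CD155 with CD96, fell as well (log2 fold change -0.70). *Cd200*, *Cd160* and *Lag3* had log2 fold changes of -0.52, -0.60 and -0.54, and *Tigit* of -0.40 with overlapping groups. The list counts *Cd200* beside its receptor gene *Cd200r1*, which did not pass (-0.0016, adjusted p = 0.992). *Cd5* and *Cd6*, inhibitory scavenger receptors that are abundant on DP thymocytes, did not pass (-0.058 and 0.10). All 4 tested genes of the costimulatory list fell, *Cd7*, *Cd40lg*, *Cd226* and *Cd69*. Of these, *Cd40lg* could only be called lower. *Cd69* (log2 fold change -0.41, adjusted p = 0.0418 from limma) is counted again below among the markers of signalled thymocytes. *Cd40lg*, the ligand by which activated T cells engage CD40, was at 2.03, 1.59 and 1.72 in WT and at 0.148, 0.473 and 0.112 in cKO.

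Few ligands were detected in these sorted cells, and 3 of 14 could be tested. *Cd274*, encoding the PD-1 ligand PD-L1, fell from 4.42 to 2.77 ± 0.395 (SD, n = 3), a difference in log2 of -0.53 (adjusted p = 0.00322), the opposite direction to *Pdcd1*. *Tnfsf9* and *Tnfsf14* did not pass. *Cd80* and *Cd86*, the ligands of CD28 and CTLA-4, were at most at 0.0967 and 0.226 in any library, and *Cd70*, the ligand of CD27, was listed at 0 in all 6. Of 12 cytoplasmic partners of the CD28 family, 2 rose and 6 fell. The phosphoinositide 3-kinase genes *Pik3r2*, *Pik3cd* and *Pik3r1* had log2 fold changes of -0.85, -0.85 and -0.73. *Trat1*, a transmembrane adaptor of the TCR that also controls the surface level of CTLA-4, rose from 116 to 225 ± 14.0 (SD, n = 3), a difference in log2 of 0.95, and *Ptpn6*, encoding the phosphatase SHP-1 recruited by inhibitory receptors, rose by 0.29.

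**Figure D4:**
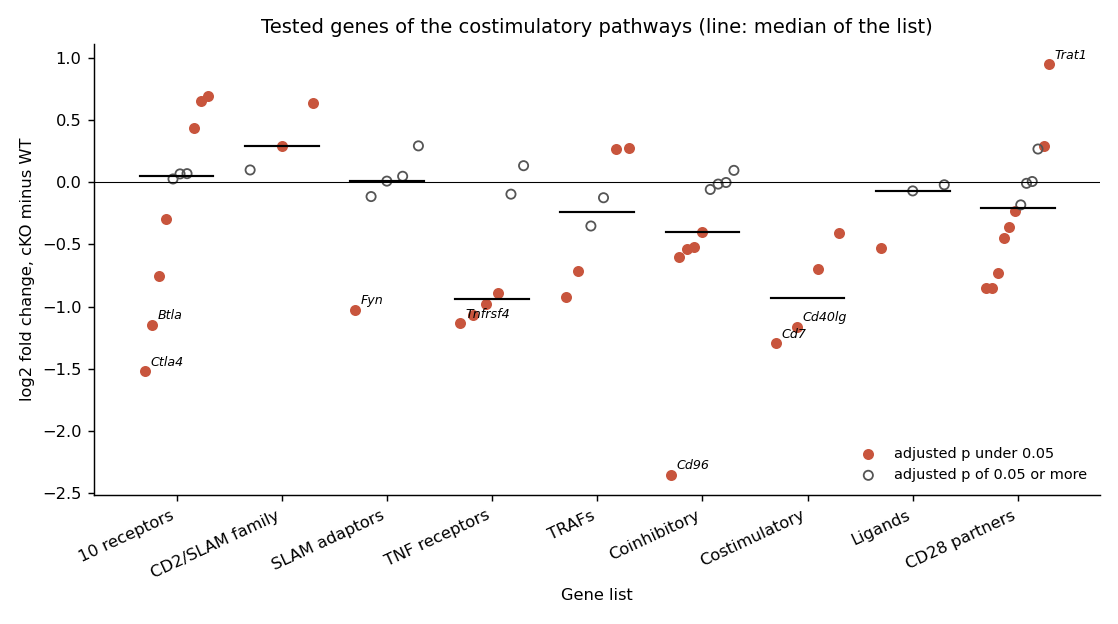
The log2 fold change (cKO minus WT) of every tested gene of the receptor set and of 8 lists of related genes, filled where the adjusted p from limma was under 0.05, with a line at the median of each list. Most filled points of the TNF receptor, coinhibitory and costimulatory lists lie below 0, with *Cd96* lowest at -2.35 and *Trat1* highest at 0.95.

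The DP identity of the libraries was checked by its markers, and other cell types and stages were read beside the receptors. *Cd4* lay between 486 and 723, *Cd8a* between 680 and 1163 and *Rag1* between 964 and 1671 over the 6 libraries. Of the 10 DP markers 7 rose and 2 fell in cKO. Beside this and the marker counts that follow, 35.8% of all tested genes rose and 29.8% fell. Of 8 markers of signalled thymocytes, 7 fell and 0 rose. Those that fell included *Egr1* (log2 fold change -1.37), *Nr4a1* (-1.21) and *Itm2a* (-0.71), while *Cd5* did not pass (-0.058, adjusted p = 0.637 from limma). The summed FPKM of the 8 was 394 to 403 in WT and 260 to 293 in cKO. *Nr4a1* was at 27.7, 54.1 and 27.0 in cKO, with cKO 2 nearest to WT as for *Ctla4*. The same held for *Cd69*, *Itm2a* and *Gata3*. The other falling markers of this list, *Egr1* (10.8, 7.58 and 8.73 in cKO), *Egr2* and *Tox*, had cKO 2 farthest from WT. Of 12 markers of mature single-positive cells, 7 fell and 1 rose. Among those that fell, *S1pr1* was between 4.11 and 4.79 in WT and between 0.133 and 0.203 in cKO. *S1pr1* reached the filter level of FPKM 1 in WT libraries alone, so it could only be called lower. Cells of these stages are also known to express *Icos*, *Ctla4* and *Btla*, and in sorted bulk cells fewer cells of a stage and less RNA per cell cannot be told apart. The part of these markers in the falls of *Ctla4*, *Icos*, *Btla* and *Cd28* was not tested.

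Regulatory T cells express *Ctla4*, *Icos* and *Tnfrsf18* at high levels. Their defining gene *Foxp3* was at 0.346, 0.330 and 0.315 in WT and at 0.0215, 0 and 0.114 in cKO, under the filter for testing in every library. Of the 6 tested markers of that list, 4 fell and 1, *Nrp1*, rose, against 29.8% and 35.8% of all genes. The summed level of all 8 listed genes was 42.7 to 44.1 in WT and 35.6 to 42.3 in cKO. *Itgae* and *Il2rb* fell most (log2 fold change -1.32 and -1.30). Both reached the filter level of FPKM 1 in WT libraries alone. They could thus only be called lower, and the count of 4 is partly set by the filter.

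Markers of other cells were low, apart from a few genes in each list. The B cell list summed to 23.2 to 24.6 in WT and 27.2 to 39.8 in cKO, nearly all of it *Cd79b*. The macrophage and dendritic cell list summed to 7.23 to 9.46 in WT and 6.93 to 8.37 in cKO, with 0 of 3 tested genes changed. The gamma delta T, NKT and NK cell list summed to 61.0 to 65.9 in WT and 80.6 to 109 in cKO, most of it *Gzma*, and of its 2 tested genes 1 rose and 1 fell. In the double negative list 3 of 4 tested genes fell, against 29.8% of all genes. In the epithelial and stromal list *Foxn1*, *Krt5* and *Col3a1* were listed at 0 in all libraries and 0 of 1 tested genes changed. The erythroid list summed to 0.603 to 1.07 in WT and 3.50 to 10.9 in cKO, most of it *Hba-a1*. The part of these cells in the receptor values was not tested.

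**Figure D5:**
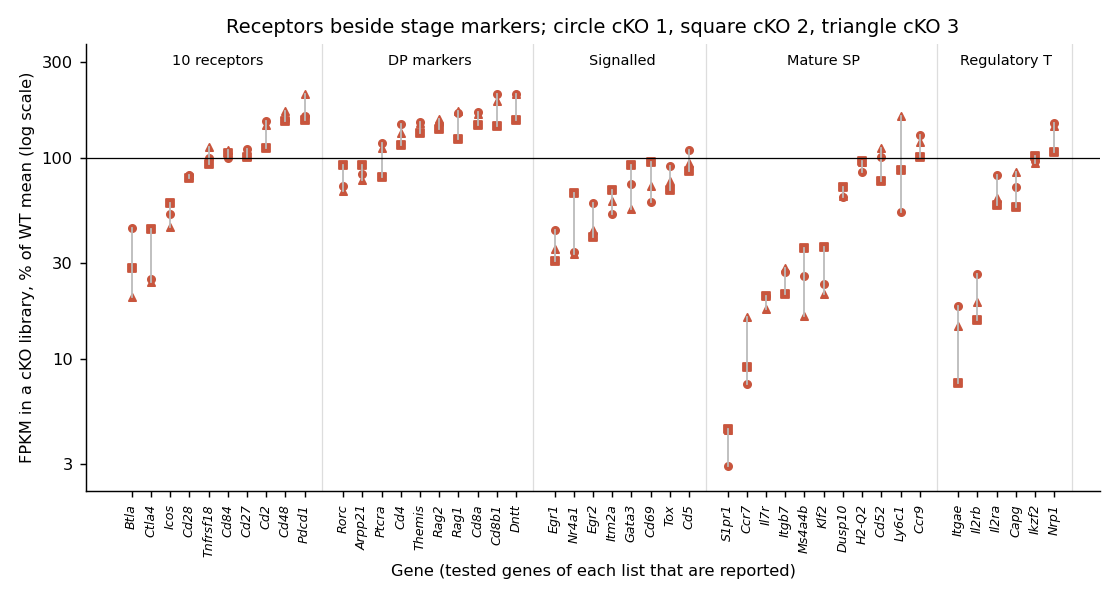
FPKM of the receptors and of the reported marker genes in cKO 1 (circle), cKO 2 (square) and cKO 3 (triangle) as a percentage of the WT mean, on a log axis, with the markers in 4 lists of stages and lineages. *Ctla4* and *Btla* lie well below the 100 line in every cKO library, as do *Nr4a1* and *Egr1*, and *Cd27*, *Cd84* and *Tnfrsf18* stay near it.

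Across the 6 libraries, the tested genes whose log2(FPKM + 1) followed *Ctla4* most closely were *Snx18* (Pearson's r = 0.9997), *Pik3r1* (r = 0.9995) and *Wdr13* (r = 0.9994). Like *Ctla4*, all 3 fell in cKO with cKO 2 nearest to WT. *Wdr13* was at 13.8, 13.6 and 13.2 in WT and at 3.93, 6.55 and 3.58 in cKO. With 2 groups that differ at most genes such values are common, and 1492 of 10316 other genes had an r above 0.95, so the likeness is a description only.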

How the data were processed

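Sorted DP thymocytes of WT and NSrp70-cKO mice were sequenced in 3 libraries per genotype. The authors prepared poly(A)-enriched directional paired-end libraries, mapped trimmed reads to mm10 with TopHat and deposited Cufflinks FPKM values, 1 per gene symbol and library. Versions of TopHat and Cufflinks, their annotation and whether strand was used are not given in the sources used here. The study's count test was not repeated, since FPKM values are not counts.

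FPKM values were divided by median-of-ratios size factors. Genes had to reach an FPKM of 1 in 3 or more of the libraries, and log2(FPKM + 1) was fitted by genotype with limma 3.58.1 (R 4.3.3, eBayes, trended prior), with Benjamini-Hochberg adjustment over all 10326 genes. Fold changes on this scale understate the change of low genes. Depth was estimated at 2608 genes with a single coding transcript in GENCODE vM21 (GRCm38, the assembly of mm10), with an assumed fragment length of 200. Fragments per receptor used its representative transcript and are approximate. GC content and length were corrected by natural splines (5 degrees of freedom). On simulated data, limma called 88 of 100 simulated 2-fold genes, 98 of 100 simulated 4-fold genes and 10 unchanged ones, out of 10326. Far fewer genes were changed there than the 65.5% called in these libraries, so these error counts may not carry over. Python 3.11.15, numpy 2.4.6, pandas 2.3.3, scipy 1.17.1 and matplotlib 3.10.9 were used.

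Named were the 10 receptors, *Nsrp1*, up to 4 called genes per list with the smallest adjusted p, genes needed to explain a small count, markers standing beside a receptor and the 3 genes most like the receptor with the largest change. The receptors and lists were chosen with earlier results of these data known. Further listed genes were named after their values were seen. Some marker genes are not reported here.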

Additional observations from a re-analysis of the deposited data

How the results depend on the processing

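Alternatives for the pseudocount, filter, scaling, trend, replicate block, WT libraries as 1 sample, GC content and length, and each library left out were tried. *Ctla4*, *Btla* and *Icos* kept their direction and call in all 17. With FPKM totals made equal, the receptors called higher and lower numbered 0 and 7 and the related genes 1 and 42, log2 fold changes were -0.12 for *Cd2*, -0.49 for *Cd27*, -0.48 for *Cd84* and -0.51 for *Tnfrsf18*, and *Cd48* (0.10) and *Pdcd1* (0.21) no longer passed. Quantile normalization gave 0.022 for *Cd2*, -0.44 for *Cd27*, -0.10 for *Cd84* and -0.031 for *Tnfrsf18*. With WT collapsed to 1 averaged sample, 1641 of all genes, 4 receptors (1 higher) and 2 higher and 9 lower related genes were called, and *Cd2* (0.44), *Cd28* (-0.29) and *Pdcd1* (0.69) no longer passed. The correction for GC content and length called 1 receptor higher and gave -0.015 for *Cd2*, -0.10 for *Cd27*, -0.056 for *Cd48*, -0.18 for *Cd84* and -0.091 for *Tnfrsf18*. With each library left out in turn, the log2 fold change was between 0.36 and 0.59 for *Cd2* and between -0.048 and 0.099 for *Tnfrsf18*, and 5 to 11 related genes were called higher and 14 to 25 lower. The cause of these shifts was not tested. With the replicate number as a block, 6467 genes and 7 receptors were called. Same-numbered libraries deviated from their group means with correlations of -0.022, 0.039 and 0.031, so the numbers gave no sign of pairing. Counting error limits *Btla* most; a fragment length of 300 in place of 200 moved its estimate in WT from 109 to 106 fragments.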
